A study of Mus musculus with 5 samples.

Results

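Cultured cDC2s are the cells that the authors' deposited annotation calls cDC2 among mouse bone marrow-derived dendritic cells (DCs). They number 2202 of 10812 annotated cultured cells, and the 579 cells annotated as proliferating cDC2 were not counted among them. C57BL/6 bone marrow was differentiated with FLT3L and GM-CSF and harvested at day 10, either grown with 5555 Ptgs-/- melanoma cells, grown with 5555 Ptgs+/+ melanoma cells, or untreated. Live CD45+ cells of the 3 conditions were sorted, hashtagged and pooled into 1 droplet library that reads the 3′ ends of RNA. Ptgs genes encode cyclooxygenases, the enzymes that begin prostaglandin synthesis. The deletion lies in the melanoma cells and not in the DCs, and the labels do not say which Ptgs gene it covers. The annotation names the conditions only by short codes, which were read as these 3 conditions from the sample's title. The cDC2s numbered 789 in the Ptgs-/- co-culture, 750 in the Ptgs+/+ co-culture and 663 in the untreated culture. Below, "with Ptgs-/- cells" and "with Ptgs+/+ cells" stand for the cDC2s of these co-cultures.

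Type 2 conventional DCs take up antigen, present it on MHC class II and prime mainly CD4+ T cells. Their development depends on the transcription factor Irf4, and in mice they are usually recognised by Sirpa, Itgam (CD11b) and lectins such as Cd209a, Mgl2 and Clec10a. Prostaglandin E2, which many tumours make, acts on myeloid cells through receptors that raise cyclic AMP.

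Each condition was 1 culture, so no test between conditions can be made, and every difference given here describes these cultures. A level is the mean over cells in CPM, a gene's count of unique molecular identifiers (UMIs, counted RNA molecules) scaled to one total in every cell. A fold is the difference of log2(mean CPM + 5) between 2 conditions. Past 1.5-fold is a size and not a test. UMI ratios compare a gene's summed UMIs, each relative to all UMIs of that condition's cDC2s. Their 95% intervals, like those of shares of cells, are exact binomial intervals that cover counting error only and not the spread between cultures. The intervals of UMI ratios also leave out the spread between cells. They are therefore too narrow for genes whose UMIs lie in few cells.

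The cells carried most markers of their label, though several of these were as high or higher in another class. Mgl2, a galactose-binding lectin, averaged 1145 CPM in cDC2s, against 29.0 CPM in cDC1s, 136 CPM in the class the authors call mDC and 18.3 CPM in plasmacytoid DCs (pDCs). Cd209a averaged 394 CPM in cDC2s and 144 CPM in cDC1s, so it was higher in cDC2s but present in both. Sirpa, an inhibitory receptor, averaged 44.5 CPM in cDC2s and 2.92 CPM in cDC1s, but 83.1 CPM in pDCs. Itgam at 167 CPM, Clec10a at 427 CPM and Irf4 at 58.3 CPM were higher in cDC2s than in any other class, Irf4 only slightly above mDCs (51.2 CPM). Tmem176b (122 CPM in cDC2s, 207 CPM in mDCs) and S100a4 (1959 CPM in cDC2s, 2223 CPM in mDCs) were higher in mDCs. Cd300a was level between cDC2s (60.3 CPM) and pDCs (60.8 CPM). Outside the marker list, the lectins Asgr2 (214 CPM in cDC2s, 3.75 CPM in cDC1s) and Clec4n (400.1 CPM in cDC2s, 5.79 CPM in cDC1s) were among the genes farthest above the other cells. The classes were made from the same cells, so these levels describe the class and test nothing. Esam, a marker of a cDC2 subset of mouse spleen, had no UMI in any cDC2, and Clec4a4 averaged 1.13 CPM.

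**Figure D1:**
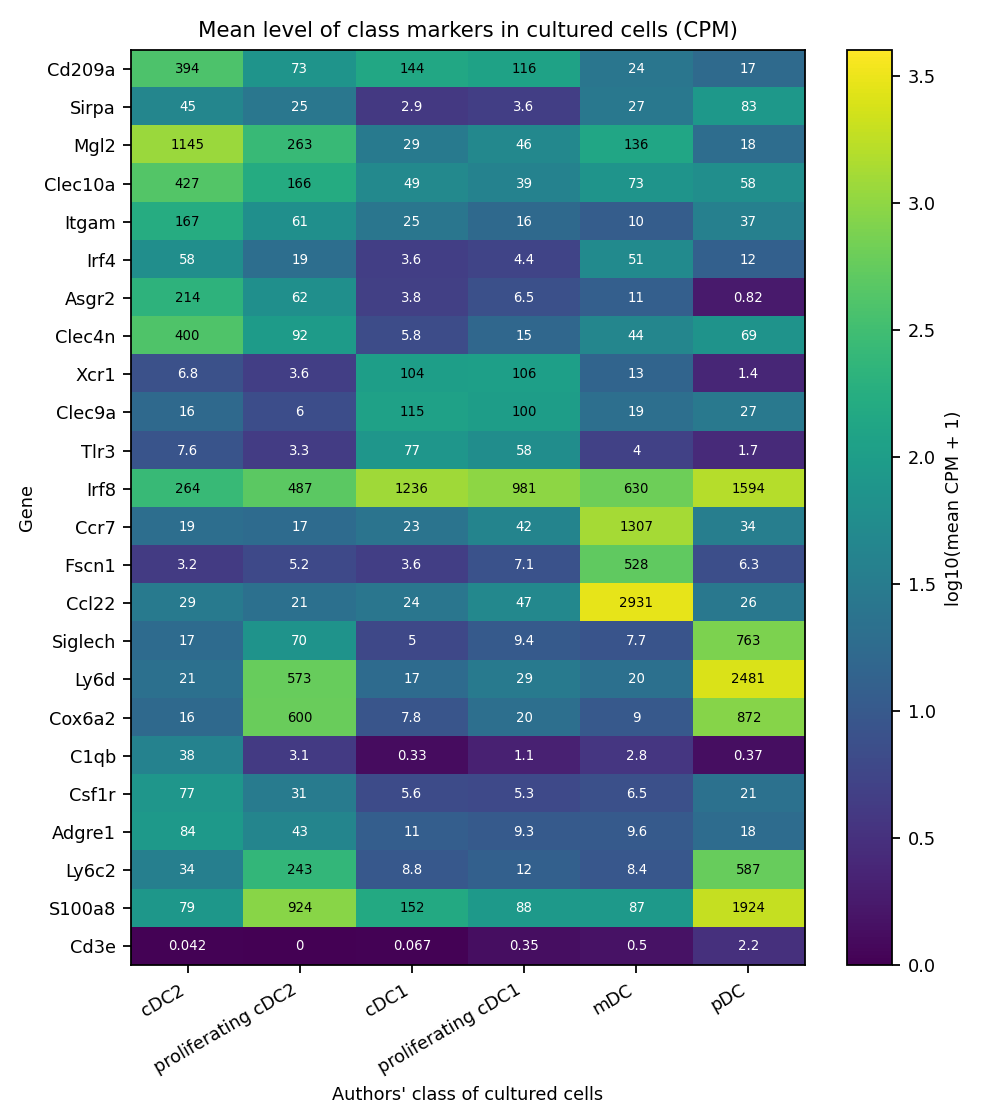
Mean CPM (number in each field, colour on a log10 scale) of 24 marker genes in the 6 annotated classes of cultured cells, all conditions together. Mgl2, Clec10a, Itgam, Asgr2 and Clec4n are highest in cDC2s, while Sirpa is higher in pDCs (83.1 CPM) than in cDC2s (44.5 CPM).

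Most single cells carried several of the 4 markers Cd209a, Sirpa, Mgl2 and Clec10a. At least 2 of the 4 were seen in 83.4% of cDC2s of the Ptgs-/- co-culture, 82.7% of those of the Ptgs+/+ co-culture and 90.8% of untreated cDC2s. None was seen in 19 cells of the Ptgs-/- co-culture, 28 cells of the Ptgs+/+ co-culture and 7 untreated cells. Summed over 12 cDC2 markers, the level was 4244 CPM with Ptgs-/- cells, 4508 CPM with Ptgs+/+ cells and 4499.5 CPM untreated, and none of the 10 markers seen in enough cells differed past 1.5-fold in any comparison. For Sirpa with Ptgs+/+ over untreated cells this held only after the centring described below. Cd209a averaged 395 CPM with Ptgs-/- cells, 344 CPM with Ptgs+/+ cells and 449.8 CPM untreated, and Sirpa 42.9 CPM with Ptgs-/- cells, 34.1 CPM with Ptgs+/+ cells and 58.2 CPM untreated.

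Markers of other cell types were present at lower levels, and some differed between the conditions. Those of cDC1s summed to 985 CPM with Ptgs-/- cells, 949 CPM with Ptgs+/+ cells and 1586 CPM untreated, against 3426 CPM in cDC1s. Those of CCR7+ mature DCs summed to 278 CPM with Ptgs-/- cells, 375 CPM with Ptgs+/+ cells and 228 CPM untreated, against 8148 CPM in mDCs. Of 9 members seen in at least 5% of cells, 4 were past 1.5-fold lower with Ptgs-/- than with Ptgs+/+ cells. Over all genes at that limit, 0.558% were lower. Neutrophil markers, chiefly S100a8 and S100a9, summed to 133 CPM with Ptgs-/- cells, 215 CPM with Ptgs+/+ cells and 306 CPM untreated. The summed cDC1 and neutrophil markers were thus highest in untreated cDC2s, and those of mature DCs with Ptgs+/+ cells. The cDC1 sum held genes seen in most cDC2s, such as Naaa (327 CPM, in 79.0% of cDC2s) and Cd24a (274 CPM, in 78.1%). Xcr1 averaged 6.76 CPM and Clec9a 15.9 CPM over all cDC2s. Whether these sums came from other cells or from the cDC2s themselves was not tested. Monocyte markers summed to 789.7 CPM with Ptgs-/- cells, 675 CPM with Ptgs+/+ cells and 699 CPM untreated, those of pDCs to 762 CPM with Ptgs-/- cells, 608 CPM with Ptgs+/+ cells and 757 CPM untreated, those of macrophages to 342 CPM with Ptgs-/- cells, 341 CPM with Ptgs+/+ cells and 381 CPM untreated, and those of progenitors to 72.0 CPM with Ptgs-/- cells, 91.7 CPM with Ptgs+/+ cells and 42.6 CPM untreated. Markers of B cells, T cells, NK cells, mast cells or basophils, melanoma cells and erythroid cells each summed to at most 9.98 CPM in any condition, and Ms4a1, Trac, Trbc2, Fcer1a, Tyr and Alas2 had no UMI. Only 3 of the 6 listed melanoma markers are in the matrix, so melanoma cell RNA could be read only in part.

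Median UMIs per cDC2 were 10118 in the Ptgs-/- co-culture, 10491 in the Ptgs+/+ co-culture and 11164 in untreated cells, and the mean mitochondrial share was 3.70% in the Ptgs-/- co-culture, 3.88% in the Ptgs+/+ co-culture and 4.62% in untreated cells. Summed UMIs were 8337407 in the Ptgs-/- co-culture, 8419939 in the Ptgs+/+ co-culture and 7807131 in untreated cDC2s. No doublet caller was run, and 12 of the cultured cDC2s (44 of all cultured cells) carried barcodes that also occur in the 5555 tumour libraries. The part of depth, mitochondrial share and other cells' RNA in the differences below was not tested, except where values without such cells are given.

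As a share of annotated cells, cDC2s made up 22% (20.7 to 23.4%) of the Ptgs-/- co-culture, 19.3% (18.1 to 20.6%) of the Ptgs+/+ co-culture and 19.8% (18.5 to 21.2%) of the untreated culture. In the same cultures the mDC class made up 13.3% with Ptgs-/- cells, 27.3% with Ptgs+/+ cells and 6.40% untreated. The cDC2 share therefore varied far less than that of mDCs, and any share also moves with the number of the other cells.

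Few genes separated the cDC2s of the co-cultures from each other, and more separated either co-culture from untreated cells. Between the co-cultures, 9 of 6367 genes seen in at least 10% of cells of either condition were past 1.5-fold higher with Ptgs-/- cells (0.141%) and 33 were lower (0.518%). Between the Ptgs-/- co-culture and untreated cells, 235 of 6833 genes were higher (3.44%) and 186 lower (2.72%). Between the Ptgs+/+ co-culture and untreated cells, 270 of 6896 genes were higher (3.92%) and 215 lower (3.12%). The median gene was lower than in untreated cells, with a log2 fold of -0.14 in the Ptgs-/- and -0.12 in the Ptgs+/+ co-culture, and folds against untreated cells are given relative to those medians. Without that centring, 139 genes were higher and 428 lower in the Ptgs-/- co-culture, and 178 were higher and 445 lower in the Ptgs+/+ co-culture. The 3 comparisons share conditions, so their values are set side by side and not compared further.

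**Figure D2:**
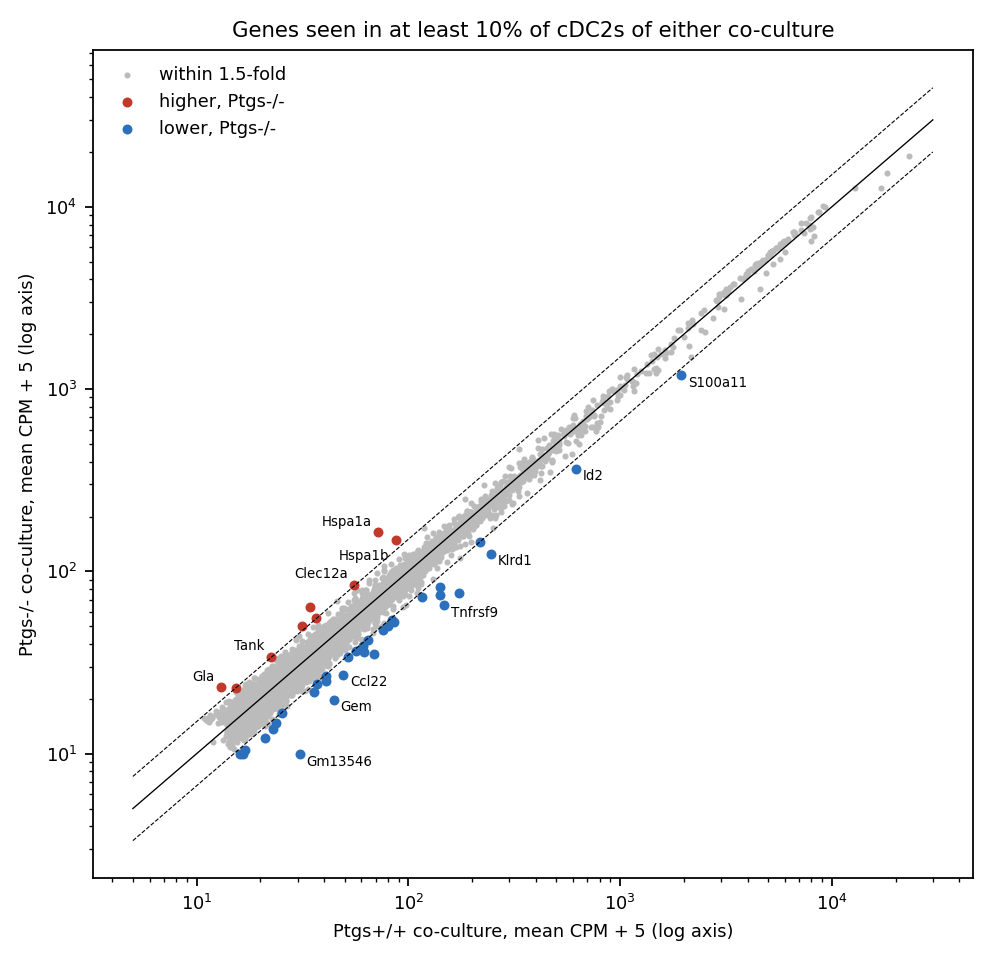
Mean CPM + 5 of each gene in cDC2s of the Ptgs-/- co-culture (vertical) against the Ptgs+/+ co-culture (horizontal), both on log axes, for 6367 genes. The dashed lines mark 1.5-fold, with 9 genes above them and 33 below.

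The inducible HSP70 genes Hspa1a and Hspa1b were among the genes higher in cDC2s with Ptgs-/- cells, Hspa1a with the largest fold. Hspa1a and Hspa1b encode near-identical chaperones that refold proteins after heat and other stress. Hspa1a averaged 159 CPM in the Ptgs-/- co-culture, 67.1 CPM in the Ptgs+/+ co-culture and 11.5 CPM in untreated cDC2s. Hspa1b averaged 144 CPM in the Ptgs-/- co-culture, 82.1 CPM in the Ptgs+/+ co-culture and 15.3 CPM in untreated cDC2s, the same order of conditions. Between the co-cultures the log2 fold was 1.19 for Hspa1a, with a UMI ratio of 2.75 (2.48 to 3.06), and 0.78 for Hspa1b, with a UMI ratio of 1.97 (1.78 to 2.18). The upper quartile of Hspa1a over single cells was 0 in each condition. Single cells reached 5798 CPM with Ptgs-/- and 6933 CPM with Ptgs+/+ cells, a spread that these intervals do not cover. Against untreated cells Hspa1a had a log2 fold of 3.46 with Ptgs-/- and 2.25 with Ptgs+/+ cells.

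The transcript was seen in a part of the cells, and a cell without a UMI may still hold it. After every cell was thinned to 5000 UMIs, which left out 27 cells with Ptgs-/- cells, 17 with Ptgs+/+ cells and 23 untreated ones, the share of cDC2s with an Hspa1a UMI was 20.1% (17.3 to 23.1%) with Ptgs-/- cells, 8.46% (6.55 to 10.7%) with Ptgs+/+ cells and 3.28% (2.04 to 4.97%) untreated. Unthinned, the shares were 23.6% with Ptgs-/- cells, 12.4% with Ptgs+/+ cells and 6.03% untreated. In cDC1s they were 8.50% with Ptgs-/- cells, 8.10% with Ptgs+/+ cells and 3.61% untreated, at median depths of 7901 UMIs with Ptgs-/- cells, 8481 with Ptgs+/+ cells and 8042 untreated. Proliferating cDC1s, at a median depth of 10947 UMIs with Ptgs-/- cells, 11332 with Ptgs+/+ cells and 11783 untreated, had shares of 21.5% with Ptgs-/- cells, 14.6% with Ptgs+/+ cells and 5.80% untreated. In proliferating cDC2s the shares were 18.5% with Ptgs-/- cells, 12.1% with Ptgs+/+ cells and 3.65% untreated. The order of the conditions in cDC2s was thus also seen in both proliferating classes and in cDC1s, where the co-cultures lay close. In mDCs the shares were 13.6% with Ptgs-/- cells, 9.34% with Ptgs+/+ cells and 8.41% untreated. Those in pDCs were 9.94% with Ptgs-/- cells, 8% with Ptgs+/+ cells and 4% untreated, so the order was common to all classes. Of cDC2s with Hspa1a in the Ptgs-/- co-culture, 73.9% also had Hspa1b at equal depth, against 5.25% of those without.

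The promoters of both genes are shown because both genes were higher with Ptgs-/- cells. The genes are so alike that the split of reads between them is uncertain. The promoter windows have no bearing on that split, since the reads come from the 3′ ends of RNA. The windows run from 250 bases before to 50 after the start, on the minus strand of GRCm38.p6 (RefSeq), at chr17:34972107-34972406 for Hspa1a and chr17:34959189-34959488 for Hspa1b. Of 300 bases, 296 (98.7%) are equal at the same distance from the start. Capitals mark the match to a paired heat shock element, GAANNTTC.
Hspa1a: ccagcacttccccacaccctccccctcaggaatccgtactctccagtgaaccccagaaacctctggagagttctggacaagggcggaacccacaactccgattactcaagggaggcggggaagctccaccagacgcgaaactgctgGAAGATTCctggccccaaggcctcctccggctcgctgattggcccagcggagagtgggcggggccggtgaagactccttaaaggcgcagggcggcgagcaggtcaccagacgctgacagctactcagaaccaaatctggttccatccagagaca
Hspa1b: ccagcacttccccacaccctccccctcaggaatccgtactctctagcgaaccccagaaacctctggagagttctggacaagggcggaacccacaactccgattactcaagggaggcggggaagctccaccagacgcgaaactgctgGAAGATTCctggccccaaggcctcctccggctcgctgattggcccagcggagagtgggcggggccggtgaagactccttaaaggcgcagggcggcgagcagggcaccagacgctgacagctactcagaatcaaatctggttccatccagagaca

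Both windows hold 1 match, 104 bases before the start. GAANNTTC and TTCNNGAA were searched on both strands, and the windows of 17.0% of 27025 genes hold either. Of the 12 genes on the heat shock list 9 had a window, and 8 of these held a match. A match says only that the letters are there.

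Of the heat shock list, 11 members were seen in at least 5% of cells, of which 2 (Hspa1a and Hspa1b themselves) were past 1.5-fold higher and 0 lower with Ptgs-/- than with Ptgs+/+ cells, with a median of 0.24. Over all genes at that detection limit, 0.158% were higher and 0.558% lower, with a median of -0.02. Hspb1, a small heat shock protein seen in too few cells to be counted, averaged 27.3 CPM with Ptgs-/- cells, 2.94 CPM with Ptgs+/+ cells and 0.350 CPM untreated, a UMI ratio between the co-cultures of 8.93 (5.89 to 14.1). It was thus higher by a larger fold than Hspa1a, in a share of cells of 3.68% with Ptgs-/- cells, 1.20% with Ptgs+/+ cells and 0.452% untreated. Hsph1, which exchanges the nucleotide of HSP70, averaged 29.2 CPM with Ptgs-/- cells, 20.8 CPM with Ptgs+/+ cells and 10.6 CPM untreated. Dnajb1, an HSP40 partner of HSP70, averaged 43.3 CPM with Ptgs-/- cells, 34.3 CPM with Ptgs+/+ cells and 25.7 CPM untreated. Hsp90aa1 averaged 388 CPM with Ptgs-/- cells, 329.8 CPM with Ptgs+/+ cells and 311 CPM untreated, within 1.5-fold throughout.

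Other genes that were higher with Ptgs-/- cells were few and of mixed function. Gla, a lysosomal galactosidase, averaged 18.1 CPM with Ptgs-/- cells, 8.03 CPM with Ptgs+/+ cells and 4.96 CPM untreated, with a UMI ratio between the co-cultures of 2.34 (1.73 to 3.20). Ccl4, an inflammatory chemokine, averaged 59.1 CPM with Ptgs-/- cells, 29.4 CPM with Ptgs+/+ cells and 13 CPM untreated. Its shares of positive cells, however, were 11.9% with Ptgs-/- cells, 11.5% with Ptgs+/+ cells and 5.28% untreated, close between the co-cultures. The 5% of cells richest in Ccl4 held the greater part of its UMIs, a share of 87.0% with Ptgs-/- cells, 79.6% with Ptgs+/+ cells and 98.4% untreated, so a few cells set its level.

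Hcar2, a receptor for ketone bodies and niacin, averaged 45.1 CPM with Ptgs-/- cells, 26.5 CPM with Ptgs+/+ cells and 39.3 CPM untreated, and the inhibitory lectin Clec12a 79.7 CPM with Ptgs-/- cells, 50.6 CPM with Ptgs+/+ cells and 75.3 CPM untreated. Both were lowest with Ptgs+/+ cells. Nupr1, a stress-induced nuclear protein, Tank, a binding partner of TRAF proteins, and Oasl2, an interferon-induced gene, had log2 folds of 0.60, 0.60 and 0.59, just past 1.5-fold. Atf3, a stress-induced transcription factor, came next at 0.58, just inside it, with 64.1 CPM with Ptgs-/- cells, 41.1 CPM with Ptgs+/+ cells and 19.9 CPM untreated. With a pseudocount of 20 CPM the fold of Gla was 0.44, that of Hcar2 0.49, that of Nupr1 0.45 and that of Tank 0.39, and from mean log2 values per cell that of Ccl4 was 0.09 and that of Oasl2 0.19, all inside 1.5-fold. Clec12a was at 0.43 without cells holding a UMI of Xcr1, Clec9a, Ccr7, Fscn1 or Siglech.

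Of the 10 genes lowest with Ptgs-/- against Ptgs+/+ cells, Tnfrsf9, Gem, Klrd1 and Csta2 are described first. Tnfrsf9 (CD137), a co-stimulatory receptor of the TNF receptor family, averaged 60.0 CPM in the Ptgs-/- co-culture, 143 CPM in the Ptgs+/+ co-culture and 20 CPM in untreated cDC2s. The log2 fold between the co-cultures was -1.18 and the UMI ratio 0.431 (0.388 to 0.479). At equal depth, that is after the same thinning, the share of cDC2s with Tnfrsf9 was 19.0% (16.3 to 22%) with Ptgs-/- cells, 37.9% (34.4 to 41.5%) with Ptgs+/+ cells and 6.41% (4.64 to 8.59%) untreated. Unthinned shares were 27.1% with Ptgs-/- cells, 51.1% with Ptgs+/+ cells and 11.5% untreated, against 2.24% with Ptgs-/- cells, 7.0% with Ptgs+/+ cells and 2.50% untreated in pDCs, whose median depth was 3712 UMIs with Ptgs-/- cells, 4139.5 with Ptgs+/+ cells and 4082.5 untreated. In cDC1s they were 5.19% with Ptgs-/- cells, 15.1% with Ptgs+/+ cells and 3.35% untreated, in proliferating cDC1s, nearest to cDC2s in depth, 8.01% with Ptgs-/- cells, 25% with Ptgs+/+ cells and 7.98% untreated, and in mDCs 60.4% with Ptgs-/- cells, 73.6% with Ptgs+/+ cells and 53.7% untreated. The share was thus higher in mDCs than in cDC2s, and the Ptgs+/+ co-culture was highest in each of these classes.

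Klrd1 (CD94), a lectin-like receptor best known from NK cells, averaged 119 CPM in the Ptgs-/- co-culture, 241 CPM in the Ptgs+/+ co-culture and 89.1 CPM in untreated cDC2s, a UMI ratio between the co-cultures of 0.491 (0.452 to 0.533). Its share of positive cells at equal depth was 27.4% with Ptgs-/- cells, 46.0% with Ptgs+/+ cells and 27.8% untreated, so by this measure the Ptgs-/- co-culture was level with untreated cells. The 4 NK cell markers in the matrix summed to 3.92 CPM with Ptgs-/- cells, 8.38 CPM with Ptgs+/+ cells and 1.70 CPM untreated, in the same order of conditions as Klrd1. Most of that was Klre1, another lectin-like receptor, at 3.66 CPM with Ptgs-/- cells, 7.67 CPM with Ptgs+/+ cells and 1.08 CPM untreated, and the part of NK cell RNA in the Klrd1 values was not tested. Ncr1 and Nkg7 averaged 0.0592 CPM and 0.305 CPM over all cDC2s. Gem, a small GTP-binding protein, averaged 14.7 CPM with Ptgs-/- cells, 39.3 CPM with Ptgs+/+ cells and 6.98 CPM untreated. Csta2, a stefin that inhibits cysteine proteases, averaged 69.6 CPM with Ptgs-/- cells, 137 CPM with Ptgs+/+ cells and 43.9 CPM untreated. In mean level, Tnfrsf9, Klrd1, Gem and Csta2 of the Ptgs-/- co-culture thus lay between the Ptgs+/+ co-culture and untreated cells.

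Egr1 and Id2 had another order, with untreated cells highest. Egr1, an immediate-early transcription factor, averaged 30.3 CPM with Ptgs-/- cells, 63.5 CPM with Ptgs+/+ cells and 99.2 CPM untreated, and its share of positive cells at equal depth was 11.2% with Ptgs-/- cells, 22.2% with Ptgs+/+ cells and 29.2% untreated. Id2, an inhibitor of DNA binding that DC development needs, averaged 361 CPM with Ptgs-/- cells, 613 CPM with Ptgs+/+ cells and 661 CPM untreated. Its log2 fold was -0.76 between the co-cultures, -0.72 for the Ptgs-/- co-culture over untreated cells and 0.01 for the Ptgs+/+ co-culture over untreated cells. By these folds of means, centred against untreated cells, only the Ptgs-/- co-culture was past 1.5-fold from the others. Its median over single cells was 185 CPM with Ptgs-/- cells, 423 CPM with Ptgs+/+ cells and 574 CPM untreated. S100a11, a calcium-binding protein, averaged 1183 CPM with Ptgs-/- cells, 1944 CPM with Ptgs+/+ cells and 1378 CPM untreated.

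The fold largest in size between the co-cultures, -1.64, belonged to Gm13546, a gene without a given role, at 4.90 CPM with Ptgs-/- cells, 25.8 CPM with Ptgs+/+ cells and 6.40 CPM untreated. B930036N10Rik and 4930455G09Rik, with no role given here either, were both at -0.78. Lyz2, the lysozyme of myeloid cells, averaged 71.2 CPM with Ptgs-/- cells, 169 CPM with Ptgs+/+ cells and 150.0 CPM untreated, but most of its UMIs lay in the richest 5% of cells, a share of 84.3% with Ptgs-/- cells, 89.9% with Ptgs+/+ cells and 82.9% untreated. Leaving out cells positive for Cd3e, Ncr1, Cd79a, for C1qa or for S100a8, its log2 fold between the co-cultures was -0.56, against -1.19 with them. S100a8 and S100a9, the neutrophil genes, were themselves lower with Ptgs-/- cells, at log2 folds of -0.64 and -0.68.

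The remaining genes past 1.5-fold, which stand outside the 10 lowest and were picked here after their values were seen, also held signalling and surface genes. Id1, a relative of Id2, averaged 9.82 CPM with Ptgs-/- cells, 18.7 CPM with Ptgs+/+ cells and 13.9 CPM untreated. Il7r, the interleukin-7 receptor, averaged 20.2 CPM with Ptgs-/- cells, 35.9 CPM with Ptgs+/+ cells and 11.6 CPM untreated, and Spp1 (osteopontin) 47.8 CPM with Ptgs-/- cells, 80.2 CPM with Ptgs+/+ cells and 30.9 CPM untreated. Dusp5, a phosphatase that acts on the kinase ERK, averaged 37.0 CPM with Ptgs-/- cells, 59.2 CPM with Ptgs+/+ cells and 35.2 CPM untreated, and Lmna, the nuclear lamin A, 28.9 CPM with Ptgs-/- cells, 46.8 CPM with Ptgs+/+ cells and 13.9 CPM untreated. All 5 were highest with Ptgs+/+ cells.

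Markers of other DC classes also lay among the lower genes. Ccl22, a chemokine for CCR4-bearing T cells that averaged 2931 CPM in mDCs, averaged 22.1 CPM with Ptgs-/- cells, 44.4 CPM with Ptgs+/+ cells and 20.2 CPM untreated in cDC2s. Without cells holding a UMI of Xcr1, Clec9a, Ccr7, Fscn1 or Siglech its fold between the co-cultures was -0.42, against -0.86 with them, and that of Ramp3 -0.42, against -0.66. Tnfrsf9, Klrd1, Id2 and Hspa1a stayed past 1.5-fold without those cells, at -1.11, -0.91, -0.64 and 1.20.

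**Figure D3:**
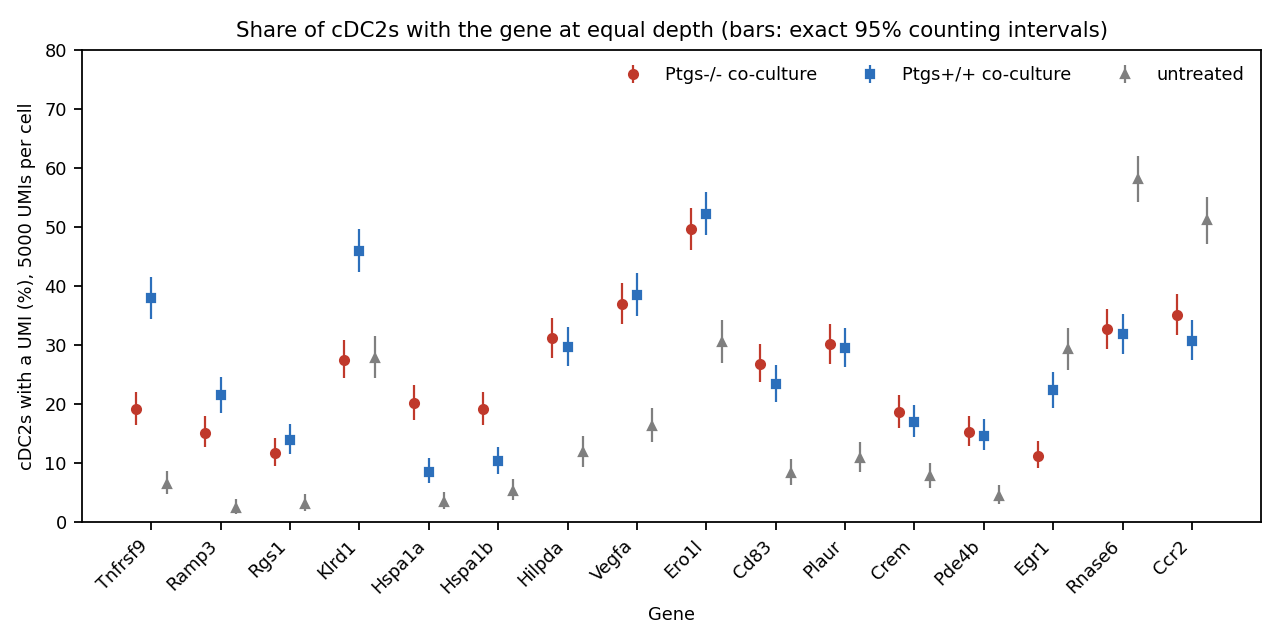
Share of cDC2s with at least 1 UMI of each of 16 genes after thinning every cell to 5000 UMIs (762 cells with Ptgs-/- cells, 733 with Ptgs+/+ cells, 640 untreated), with exact 95% counting intervals. Hspa1a is highest with Ptgs-/- cells (20.1%) and Tnfrsf9 with Ptgs+/+ cells (37.9%).

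Against untreated cells, Ramp3 and Rgs1 were, beside Hspa1a and Hspa1b, among the 5 highest genes in both co-cultures. Ramp3, a co-receptor that lets the calcitonin receptor-like receptor respond to adrenomedullin, averaged 42.7 CPM in the Ptgs-/- co-culture, 70.6 CPM in the Ptgs+/+ co-culture and 6.87 CPM in untreated cDC2s. Its UMI ratio to untreated cells was 5.26 (4.02 to 6.99) with Ptgs-/- and 8.61 (6.63 to 11.4) with Ptgs+/+ cells. Rgs1, which switches off G-protein signals of chemokine receptors, averaged 45.4 CPM with Ptgs-/- cells, 65.0 CPM with Ptgs+/+ cells and 9.04 CPM untreated. Ramp3 is also frequent in mDCs, in which the share of cells with it was 75.7% with Ptgs-/- cells, 90.5% with Ptgs+/+ cells and 66.4% untreated. Without cells holding a UMI of Xcr1, Clec9a, Ccr7, Fscn1 or Siglech, the folds of Ramp3 over untreated cells were 2.37 with Ptgs-/- and 2.75 with Ptgs+/+ cells, so Ramp3 was past 1.5-fold without them too. Plaur, the urokinase receptor, averaged 93.2 CPM with Ptgs-/- cells, 83.8 CPM with Ptgs+/+ cells and 25.1 CPM untreated, and Cstdc4 44.6 CPM with Ptgs-/- cells, 68.6 CPM with Ptgs+/+ cells and 18.5 CPM untreated.

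Some genes that hypoxia is known to induce were higher in both co-cultures. Of 20 measured members of the hypoxia and glycolysis list, 4 were past 1.5-fold higher with Ptgs-/- cells (Bnip3, Ndrg1, Ero1l and Egln3) and 5 with Ptgs+/+ cells (these and Pgam1), and 0 were lower. The medians were 0.32 with Ptgs-/- and 0.42 with Ptgs+/+ cells. Among all genes that passed the 5% limit, 3.19% were higher and 2.38% lower with Ptgs-/- cells, and 3.76% were higher and 2.74% lower with Ptgs+/+ cells, with medians near 0. These shares of all genes stand against every list count over untreated cells given below. Where 1 member of a list was past 1.5-fold, the count describes that member and not the list. Ero1l, an oxidase of the endoplasmic reticulum, averaged 235 CPM with Ptgs-/- cells, 256 CPM with Ptgs+/+ cells and 99.9 CPM untreated. Bnip3, a mitophagy receptor, averaged 201 CPM with Ptgs-/- cells, 219 CPM with Ptgs+/+ cells and 131 CPM untreated. The glycolytic gene Ldha, at 985 CPM with Ptgs-/- cells, 1037 CPM with Ptgs+/+ cells and 970.5 CPM untreated, and the glucose transporter gene Slc2a1, at 64.5 CPM with Ptgs-/- cells, 64.0 CPM with Ptgs+/+ cells and 56.5 CPM untreated, lay within 1.5-fold.

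Outside that list, Hilpda, a lipid droplet protein, averaged 107 CPM with Ptgs-/- cells, 102 CPM with Ptgs+/+ cells and 28.1 CPM untreated. Vegfa, the vascular growth factor, averaged 126 CPM with Ptgs-/- cells, 119 CPM with Ptgs+/+ cells and 41.1 CPM untreated. Both were alike in level between the co-cultures, with UMI ratios of 1.09 (0.987 to 1.20) for Hilpda and 1.1 (1.00 to 1.20) for Vegfa. At equal depth 50.6% of Hilpda-positive cells with Ptgs-/- cells also had Vegfa, against 30.7% of Hilpda-negative ones. With Ptgs+/+ cells the share was 51.2% of positive and 33.1% of negative cells, and in the untreated culture 30.7% of positive and 14.3% of negative cells.

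The promoter windows of Hilpda (plus strand, chr6:29272376-29272675, 1 of 2 windows of this gene) and Bnip3 (minus strand, chr7:138909457-138909756), both from RefSeq on GRCm38.p6, are shown for 2 of the genes that were higher in both co-cultures. Capitals mark matches to the core of the hypoxia response element, ACGTG, on either strand.
Hilpda: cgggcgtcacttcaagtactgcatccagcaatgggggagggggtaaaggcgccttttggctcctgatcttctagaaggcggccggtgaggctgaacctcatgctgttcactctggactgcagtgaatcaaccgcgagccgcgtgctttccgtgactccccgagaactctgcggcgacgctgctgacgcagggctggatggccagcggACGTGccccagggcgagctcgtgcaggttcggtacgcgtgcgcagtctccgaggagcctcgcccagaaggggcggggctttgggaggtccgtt
Bnip3: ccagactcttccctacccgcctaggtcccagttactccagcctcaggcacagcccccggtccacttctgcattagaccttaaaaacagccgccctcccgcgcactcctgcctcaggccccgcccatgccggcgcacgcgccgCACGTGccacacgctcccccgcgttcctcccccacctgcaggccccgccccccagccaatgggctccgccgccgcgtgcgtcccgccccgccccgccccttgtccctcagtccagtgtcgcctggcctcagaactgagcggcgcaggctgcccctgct

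The Hilpda window was picked from 2 by its number of matches, so the match in it describes the shown window only. It holds 1 match, and the Bnip3 window holds 2 overlapping matches on opposite strands. The windows of 21.8% of genes hold the core, and so do those of 13 of the 19 list genes that had a window.

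Most cAMP-responsive genes were higher in both co-cultures, and none was past 1.5-fold between them. Of the measured members, 8 of 11 were higher with Ptgs-/- cells (median 0.92), 8 of 12 with Ptgs+/+ cells (median 0.86), and 0 were lower. Over all genes at the 5% limit, 3.19% were higher with Ptgs-/- and 3.76% with Ptgs+/+ cells. Between the co-cultures the median was 0.03. Crem, a cAMP-induced repressor, averaged 52.1 CPM with Ptgs-/- cells, 43.1 CPM with Ptgs+/+ cells and 16.2 CPM untreated. Pde4b, which degrades cAMP, averaged 35.4 CPM with Ptgs-/- cells, 39.8 CPM with Ptgs+/+ cells and 10.1 CPM untreated. The orphan nuclear receptor Nr4a2 averaged 23.8 CPM with Ptgs-/- cells, 33.2 CPM with Ptgs+/+ cells and 10.1 CPM untreated, and Fosl2, an AP-1 subunit, 65.3 CPM with Ptgs-/- cells, 61.9 CPM with Ptgs+/+ cells and 29.8 CPM untreated. These genes are known to answer to other signals too. The cAMP response element TGACGTCA, which reads the same on both strands, is in the windows of 2.03% of genes and of 1 of the 10 list members with a window (Areg).

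Genes of prostaglandin synthesis and sensing were mostly low. The inducible cyclooxygenase gene Ptgs2 averaged 5.93 CPM with Ptgs-/- cells, 2.58 CPM with Ptgs+/+ cells and 1.12 CPM untreated, and its share of positive cells, under the 5% needed to be counted, was 3.30% with Ptgs-/- cells, 2.53% with Ptgs+/+ cells and 1.36% untreated. The constitutive Ptgs1 averaged 113 CPM with Ptgs-/- cells, 169.6 CPM with Ptgs+/+ cells and 85.5 CPM untreated, a UMI ratio to untreated cells of 1.33 (1.21 to 1.46) with Ptgs-/- and 1.87 (1.71 to 2.04) with Ptgs+/+ cells. Of the prostaglandin E2 receptors that raise cAMP, Ptger4 averaged 9.24 CPM with Ptgs-/- cells, 8.41 CPM with Ptgs+/+ cells and 15.3 CPM untreated, and Ptger2 0.829 CPM with Ptgs-/- cells, 1.37 CPM with Ptgs+/+ cells and 1.26 CPM untreated. Of 9 measured members, 0 were higher and 1 (Hpgds) lower with Ptgs-/- cells, and 1 (Ptgs1) was higher and 1 (Hpgd, which degrades prostaglandins) lower with Ptgs+/+ cells.

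Some activation genes were higher. Of 8 measured co-stimulatory genes, 3 were higher with Ptgs-/- cells (Cd80, Tnfsf9 and Cd83) and 4 with Ptgs+/+ cells (these and Cd86), and 0 were lower. Cd83, which stabilises MHC class II at the surface, averaged 85.2 CPM with Ptgs-/- cells, 93.4 CPM with Ptgs+/+ cells and 27.2 CPM untreated. Cd86, a ligand of CD28 and CTLA-4, averaged 60.2 CPM with Ptgs-/- cells, 92.2 CPM with Ptgs+/+ cells and 53.2 CPM untreated, and Cd40 10.4 CPM with Ptgs-/- cells, 8.24 CPM with Ptgs+/+ cells and 9.80 CPM untreated. Of the regulatory list, 2 of 7 were higher with Ptgs-/- cells (Cd274 and Socs3) and 3 of 8 with Ptgs+/+ cells (these and Pdcd1lg2). Cd274 (PD-L1), the ligand of PD-1, averaged 32.5 CPM with Ptgs-/- cells, 36.8 CPM with Ptgs+/+ cells and 9.14 CPM untreated.

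Migration genes differed in both directions. Ccr7, the receptor that guides DCs to lymph nodes and that averaged 1307 CPM in mDCs, averaged 16.8 CPM with Ptgs-/- cells, 30.7 CPM with Ptgs+/+ cells and 9.33 CPM untreated in cDC2s. Cxcr4, the CXCL12 receptor, averaged 17.8 CPM with Ptgs-/- cells, 13.2 CPM with Ptgs+/+ cells and 5.20 CPM untreated. Ccr2, the receptor for CCL2, averaged 119 CPM with Ptgs-/- cells, 104 CPM with Ptgs+/+ cells and 209 CPM untreated, so it was highest in untreated cells. Of the measured members 4 of 13 were higher and 2 lower with Ptgs-/- cells, and 3 of 12 were higher and 1 lower with Ptgs+/+ cells.

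Most cytokine genes were scarce. Il12b averaged 0.393 CPM with Ptgs-/- cells, 0.705 CPM with Ptgs+/+ cells and 0.550 CPM untreated, and Il6 at most 0.392 CPM in any condition. Tnf averaged 19.0 CPM with Ptgs-/- cells, 21.0 CPM with Ptgs+/+ cells and 26.4 CPM untreated, within 1.5-fold. Of the inflammatory list, 2 of 5 measured members were higher with Ptgs-/- cells (Osm and Vegfa) and 4 of 7 with Ptgs+/+ cells (these, Il1b and Trem1). Il1b averaged 11.3 CPM with Ptgs-/- cells, 15.8 CPM with Ptgs+/+ cells and 3.99 CPM untreated, and its share of positive cells was 4.06% with Ptgs-/- cells, 6.13% with Ptgs+/+ cells and 2.71% untreated. Il1r2, the decoy receptor that binds IL-1 without signalling, was far more abundant, at 435 CPM with Ptgs-/- cells, 587 CPM with Ptgs+/+ cells and 235 CPM untreated. Its fold over untreated cells was 1.02 with Ptgs-/- and 1.42 with Ptgs+/+ cells.

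Ccl17 had the highest level among the chemokine genes seen in at least 10% of cDC2s. Ccl17, which attracts CCR4-bearing T cells, averaged 1275 CPM with Ptgs-/- cells, 1509 CPM with Ptgs+/+ cells and 1659 CPM untreated. Ccl6 followed at 154 CPM with Ptgs-/- cells, 146 CPM with Ptgs+/+ cells and 125 CPM untreated. Ccl5 averaged 36.3 CPM with Ptgs-/- cells, 40.6 CPM with Ptgs+/+ cells and 21.8 CPM untreated, while Cxcl9 and Cxcl10, the CXCR3 ligands, stayed at or under 2.28 CPM. Of the 7 measured chemokines and cytokines that attract T and NK cells, 2 were higher with Ptgs-/- cells (Ccl4 and Ccl5), 3 with Ptgs+/+ cells (these and Ccl22), and 0 were lower. Without cells holding a UMI of Xcr1, Clec9a, Ccr7, Fscn1 or Siglech, the log2 fold of Ccl22 with Ptgs+/+ over untreated cells was 0.50, inside 1.5-fold, against 1.09 over all cDC2s.

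NF-kB pathway genes were higher for 3 of 15 members with Ptgs-/- cells (Rel, Nfkbia and Nfkbiz) and 6 of 15 with Ptgs+/+ cells (these, Tnfaip3, Birc3 and Traf1), and lower for 0. The shares higher over all genes were 3.19% with Ptgs-/- and 3.76% with Ptgs+/+ cells. The inhibitor gene Nfkbia averaged 66.4 CPM with Ptgs-/- cells, 84.4 CPM with Ptgs+/+ cells and 47.3 CPM untreated, and Rel, a subunit of the factor, 135 CPM with Ptgs-/- cells, 116 CPM with Ptgs+/+ cells and 68.3 CPM untreated. None of the 15 was past 1.5-fold between the co-cultures (median -0.26).

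Immediate-early genes split. Of 14 measured members, 3 were higher with Ptgs-/- cells (Fosl2, Junb and Atf3) and 4 lower (Egr1, Egr2, Egr3 and Ier2). With Ptgs+/+ cells 6 were higher (Fos, Fosb, Fosl2, Junb, Ier3 and Atf3) and 1 lower (Egr2). Junb averaged 599 CPM with Ptgs-/- cells, 609 CPM with Ptgs+/+ cells and 352 CPM untreated, and Egr3 2.98 CPM with Ptgs-/- cells, 9.42 CPM with Ptgs+/+ cells and 16.3 CPM untreated. Between the co-cultures Fosb, Egr1 and Egr3 were lower with Ptgs-/- cells, and 0 of 14 were higher. Over all genes at the 5% limit, 0.558% were lower and 0.158% higher.

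Ifitm1 and Ifitm3, interferon-induced membrane proteins that restrict viral entry, were abundant. Ifitm1 averaged 12624 CPM in the Ptgs-/- co-culture, 17115 CPM in the Ptgs+/+ co-culture and 7840.4 CPM in untreated cDC2s. Its median over single cells was 12437 CPM with Ptgs-/- cells, 16720.3 CPM with Ptgs+/+ cells and 7336 CPM untreated. The quartiles were 8177 and 16896 CPM with Ptgs-/- cells, 12572 and 21946 CPM with Ptgs+/+ cells, and 4464 and 10429 CPM untreated, so the bulk of the cells was placed higher and not a few of them. Ifitm3 averaged 3519 CPM with Ptgs-/- cells, 4555 CPM with Ptgs+/+ cells and 2547 CPM untreated. It was the 1 of 11 measured type I interferon-induced list members past 1.5-fold over untreated cells in either co-culture, and Isg15 averaged 57.8 CPM with Ptgs-/- cells, 66.3 CPM with Ptgs+/+ cells and 48.8 CPM untreated. Of 10 interferon-gamma-induced genes 0 were higher, 2 were lower with Ptgs-/- cells (Gbp2 and Gbp7) and 1 was lower with Ptgs+/+ cells (Gbp3).

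**Figure D4:**
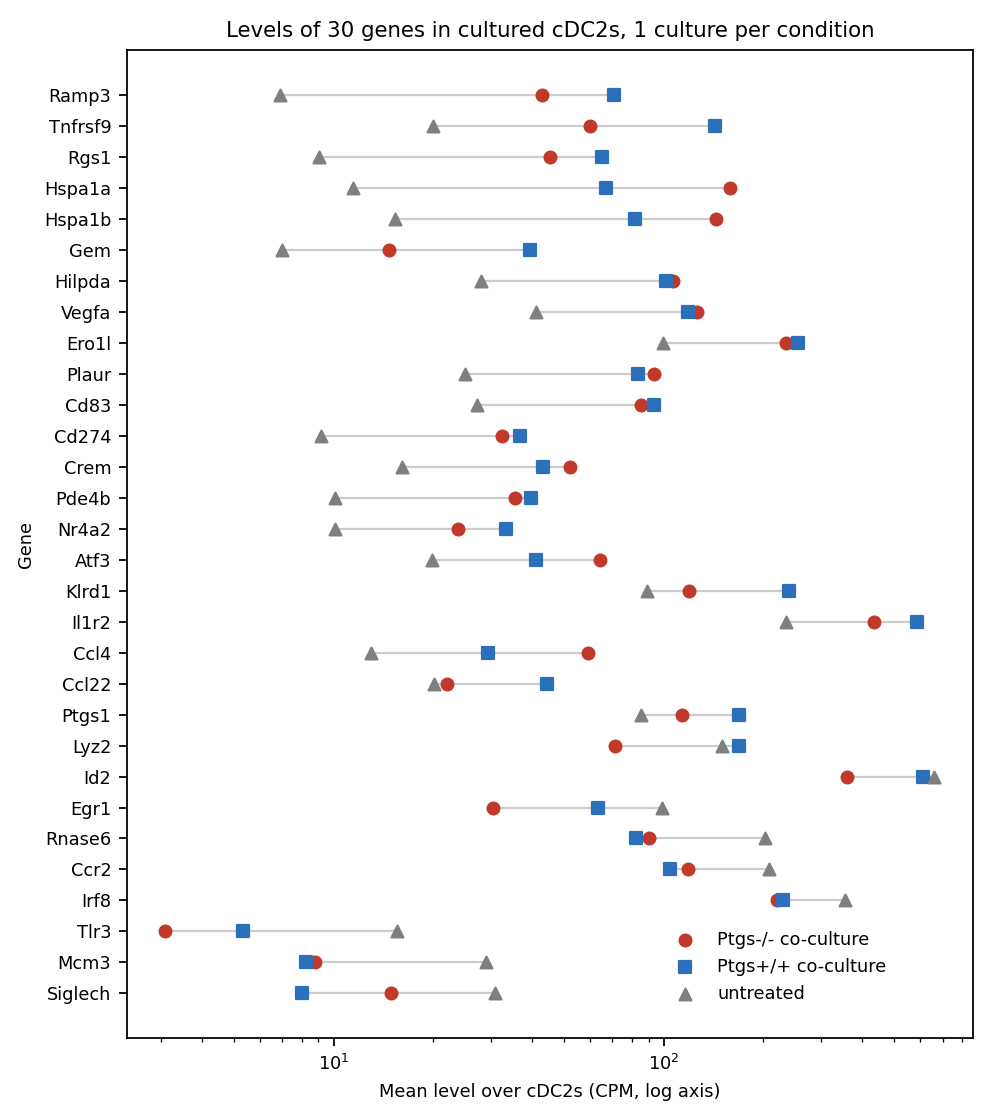
Mean CPM (log axis) of 30 genes in cDC2s of the Ptgs-/- co-culture (circles), the Ptgs+/+ co-culture (squares) and untreated cells (triangles), 1 culture each. From Ramp3 to Ptgs1 both co-cultures lie right of untreated cells, and from Id2 to Siglech both lie left of them. For Lyz2 the untreated culture lies between.

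Mcm2, Mcm3, Mcm5 and Mcm6, which encode subunits of the replicative helicase, were lower in both co-cultures, while 10 of the 15 measured cell cycle genes lay within 1.5-fold in each. Of the 15 measured cell cycle members, 5 were lower with Ptgs-/- cells (Mcm2, Mcm3, Mcm5, Mcm6 and Tyms) and 4 with Ptgs+/+ cells (the 4 Mcm genes), while 0 were higher with Ptgs-/- and 1 (Ube2c) with Ptgs+/+ cells. Mcm3 averaged 8.80 CPM with Ptgs-/- cells, 8.27 CPM with Ptgs+/+ cells and 28.9 CPM untreated. The mitotic genes Mki67, at 5.38 CPM with Ptgs-/- cells, 6.48 CPM with Ptgs+/+ cells and 10.8 CPM untreated, and Top2a, at 13.2 CPM with Ptgs-/- cells, 11.4 CPM with Ptgs+/+ cells and 14.1 CPM untreated, were within 1.5-fold. For Mki67 with Ptgs-/- cells this held only after centring and with the pseudocount of 5 CPM.

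Several other genes were lower in both. Rnase6, a secreted antimicrobial ribonuclease, averaged 90.3 CPM with Ptgs-/- cells, 82.6 CPM with Ptgs+/+ cells and 203 CPM untreated, and its share of positive cells at equal depth was 32.7% with Ptgs-/- cells, 31.8% with Ptgs+/+ cells and 58.1% untreated. Cd180, a Toll-like receptor relative, averaged 18.2 CPM with Ptgs-/- cells, 16.2 CPM with Ptgs+/+ cells and 43.6 CPM untreated. Rnd3, a small GTP-binding protein, averaged 11.2 CPM with Ptgs-/- cells, 8.23 CPM with Ptgs+/+ cells and 29.7 CPM untreated. In each of these the co-cultures lay close together and below untreated cells. Rassf4, Shtn1, Grap, Rtl8b and F630028O10Rik had log2 folds of -0.63, -1.09, -0.82, -1.06 and -1.37 with Ptgs-/- cells, and of -1.07, -1.15, -1.10, -1.21 and -1.27 with Ptgs+/+ cells. Ctla2b and Ftsj3 were at -1.13 and -1.09 with Ptgs-/- cells. Without cells holding a UMI of Xcr1, Clec9a, Ccr7, Fscn1 or Siglech, Ctla2b was at -0.38 and Rtl8b at -0.37 in that comparison, inside 1.5-fold.

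Lower genes included markers of other DC classes. Siglech, a pDC lectin (763 CPM in pDCs), averaged 14.9 CPM with Ptgs-/- cells, 8.01 CPM with Ptgs+/+ cells and 30.8 CPM untreated. Tlr3, a receptor for double-stranded RNA (76.6 CPM in cDC1s), averaged 3.09 CPM with Ptgs-/- cells, 5.31 CPM with Ptgs+/+ cells and 15.5 CPM untreated, and Irf8, a factor of cDC1 and pDC development (1236 CPM in cDC1s), 221 CPM with Ptgs-/- cells, 229.6 CPM with Ptgs+/+ cells and 354 CPM untreated. Cells holding a UMI of Xcr1, Clec9a, Ccr7, Fscn1 or Siglech were 27.5% of cDC2s with Ptgs-/- cells, 31.2% with Ptgs+/+ cells and 37.4% untreated. Without them the log2 folds of Irf8 over untreated cells were -0.01 with Ptgs-/- and 0.11 with Ptgs+/+ cells, against -0.52 with Ptgs-/- and -0.49 with Ptgs+/+ cells over all cDC2s. Those of Tlr3 were -0.73 with Ptgs-/- and -0.30 with Ptgs+/+ cells, against -1.20 with Ptgs-/- and -0.87 with Ptgs+/+ cells over all cDC2s. Rnase6 and Mcm3 stayed past 1.5-fold, Rnase6 at -1.01 with Ptgs-/- and -1.0 with Ptgs+/+ cells, and Mcm3 at -1.03 with Ptgs-/- and -0.99 with Ptgs+/+ cells.

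Antigen presentation and mitochondrial genes differed little. Of 12 measured MHC class II genes, 0 were higher and 1 (March1, a ubiquitin ligase that removes MHC class II from the surface) was lower than untreated in either co-culture. Cd74, the invariant chain, averaged 12746 CPM with Ptgs-/- cells, 12892 CPM with Ptgs+/+ cells and 13676 CPM untreated, and H2-Aa 5149 CPM with Ptgs-/- cells, 5699 CPM with Ptgs+/+ cells and 4945 CPM untreated. Of 13 MHC class I genes, 0 were higher with Ptgs-/- and 1 (H2-Q7) with Ptgs+/+ cells. All 18 nuclear-encoded oxidative phosphorylation genes lay within 1.5-fold in the 3 comparisons.

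Among 19 measured DC lineage transcription factors, Cebpb and Nfil3 were higher and Cbfa2t3 lower in both co-cultures. Runx3 was also higher with Ptgs+/+ cells, and Id2 lower with Ptgs-/- cells. Cebpb, a factor of myeloid activation, averaged 46.4 CPM with Ptgs-/- cells, 38.3 CPM with Ptgs+/+ cells and 15.3 CPM untreated. Irf4 averaged 59.5 CPM with Ptgs-/- cells, 49.8 CPM with Ptgs+/+ cells and 66.6 CPM untreated, and Klf4, a factor of a cDC2 subset, 27.0 CPM with Ptgs-/- cells, 29.8 CPM with Ptgs+/+ cells and 41.8 CPM untreated, both within 1.5-fold.

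Of 19 measured growth factor and cytokine receptors, 2 were higher (Il4ra and Il1r2) and 1 lower (Tgfbr1) with Ptgs-/- cells. With Ptgs+/+ cells 2 were higher (Csf2rb and Il1r2) and 3 lower (Tgfbr1, Tgfbr2 and Il1r1). Csf2rb, the beta chain through which GM-CSF signals, averaged 349 CPM with Ptgs-/- cells, 393 CPM with Ptgs+/+ cells and 260.2 CPM untreated. Flt3, the receptor of FLT3L, averaged 13.7 CPM with Ptgs-/- cells, 15.9 CPM with Ptgs+/+ cells and 23.9 CPM untreated, within 1.5-fold. With Ptgs-/- cells this held only after centring.

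Some stress and lipid genes also differed from untreated cells. Of the endoplasmic reticulum stress genes, 4 of 13 were higher with Ptgs-/- cells and 4 of 14 with Ptgs+/+ cells (Ddit3, Atf3, Pdia6 and Ppp1r15a in each), and 0 were lower. Of the oxidative stress genes 2 of 12 (Hmox1 and Mt2) were higher with Ptgs-/- and 1 of 11 (Hmox1) with Ptgs+/+ cells. Of 19 cholesterol synthesis genes, 2 (Fdps and Msmo1) were higher and 0 lower with Ptgs+/+ cells. The sterol exporter gene Abcg1 averaged 54.1 CPM with Ptgs-/- cells, 53.3 CPM with Ptgs+/+ cells and 93.9 CPM untreated, lower in both. Of the remaining lists, TGF-beta and IL-10 targets had 3 of 9 higher in each co-culture, lysosomal genes 3 of 18 with Ptgs-/- and 2 of 18 with Ptgs+/+ cells, and Toll-like receptors and adaptors 1 of 6 lower (Tlr3) in each.

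Surface lectins and subset genes were mostly within 1.5-fold. The small counts in these lists describe the named members only. Of the C-type lectins, 1 of 13 was higher (Clec4d) with Ptgs-/- cells and 2 of 14 (Clec4d and Clec5a) with Ptgs+/+ cells, and 1 (Clec4a2) was lower in each. Of 14 integrin and adhesion genes, 0 were past 1.5-fold with Ptgs-/- cells and 1 (Itgax) was lower with Ptgs+/+ cells. Of 7 measured genes that divide cDC2 subsets in mouse spleen, Il1r2 was higher in both co-cultures, Ccr2 lower in both, and Lyz2 lower with Ptgs-/- cells. Of the alternative activation genes, 1 of 4 (Il4ra) was higher with Ptgs-/- and 1 of 5 (Chil3) with Ptgs+/+ cells.

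**Figure D5:**
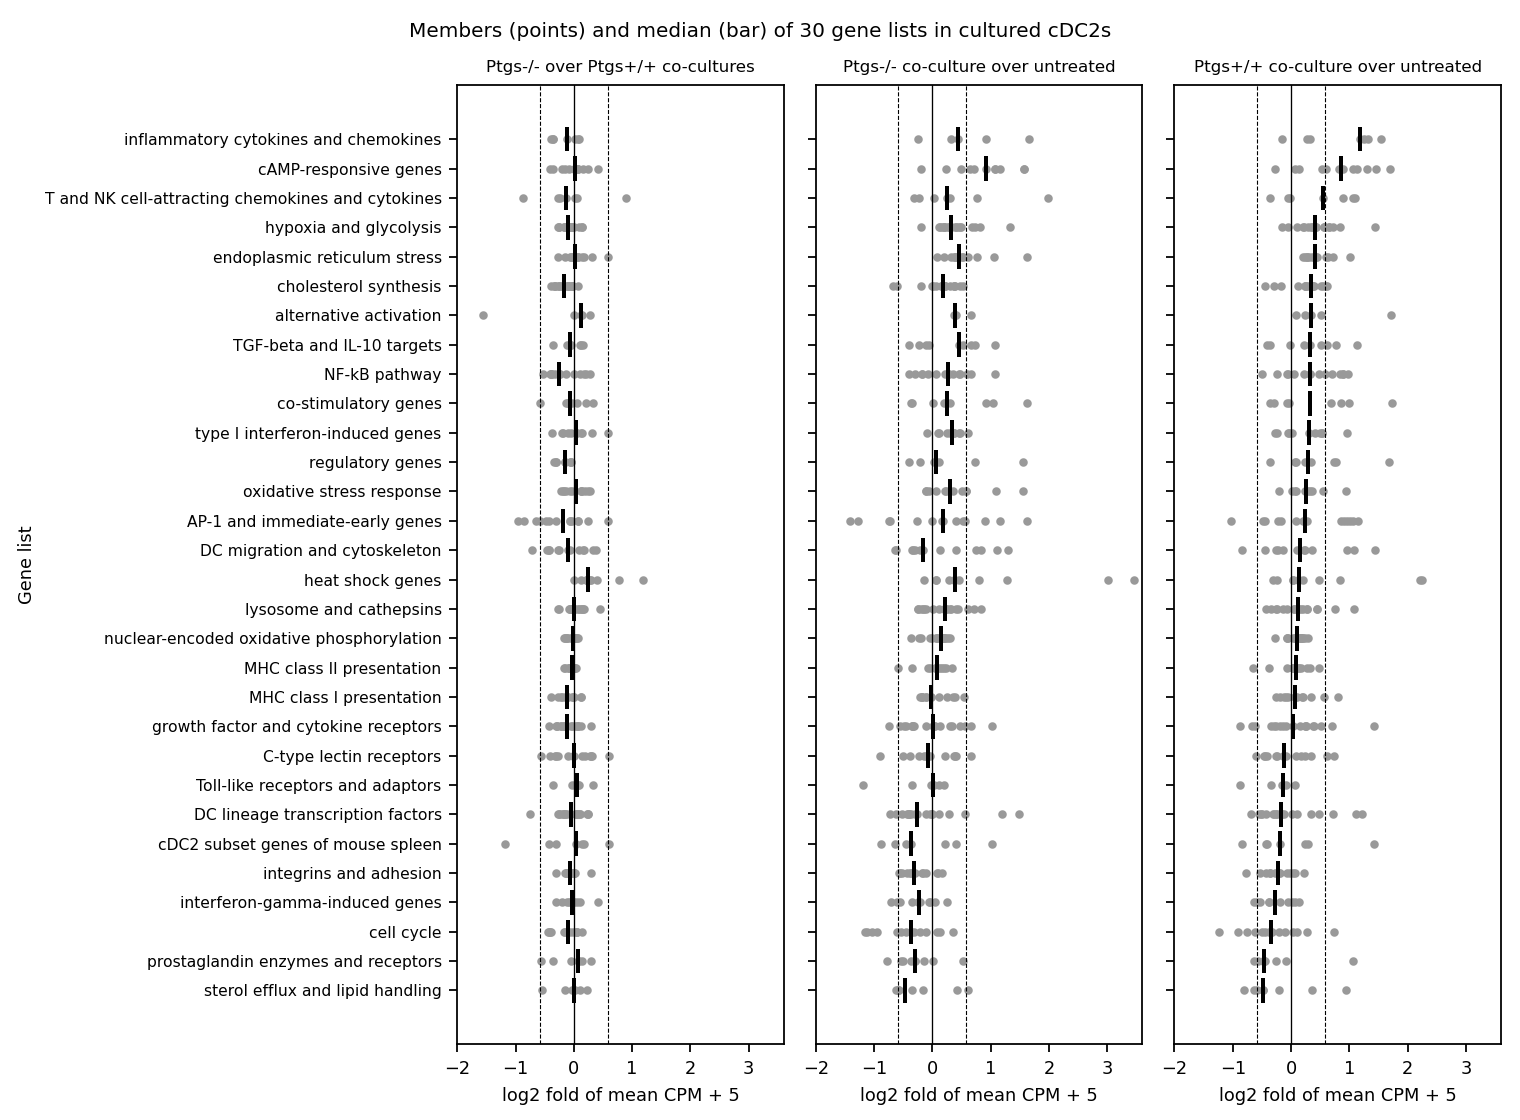
Log2 folds of the measured members (points) and their median (bar) for 30 gene lists in cDC2s, in the 3 comparisons, with dashed lines at 1.5-fold. The cAMP-responsive list has medians of 0.92 with Ptgs-/- and 0.86 with Ptgs+/+ cells over untreated cells, and of 0.03 between the co-cultures.

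The cDC2s were not uniform, and Ccl17 marked a division that was present in every condition. The unthinned share of cDC2s with Ccl17 was 61.2% with Ptgs-/- cells, 61.1% with Ptgs+/+ cells and 75% untreated, at the median depths given above. In mDCs it was 62.5% with Ptgs-/- cells, 64.5% with Ptgs+/+ cells and 67.8% untreated. These shares were close to those of cDC2s, but at lower median depths of 7317 UMIs with Ptgs-/- cells, 7263.5 with Ptgs+/+ cells and 9052 untreated. The share was 28.9% with Ptgs-/- cells, 34.7% with Ptgs+/+ cells and 22.9% untreated in cDC1s. In pDCs it was 8.33% with Ptgs-/- cells, 5.50% with Ptgs+/+ cells and 10.5% untreated. Single cells ranged from 0 to 19174 CPM with Ptgs-/- cells, to 24137 CPM with Ptgs+/+ cells and to 18835 CPM untreated. At equal depth 67.1% of Ccl17-positive cells with Ptgs-/- cells had Cd209a, against 26.2% of Ccl17-negative ones. With Ptgs+/+ cells the share was 63.9% of positive and 24.0% of negative cells, and in the untreated culture 68.0% of positive and 38.0% of negative cells.

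More genes followed this division, and those named here were chosen after their values were seen, among thinned cells. Mgl2 averaged 1563 CPM in positive and 732 CPM in negative cells of the Ptgs-/- co-culture, 1607 CPM in positive and 716 CPM in negative cells of the Ptgs+/+ co-culture, and 1266 CPM in positive and 539.5 CPM in negative untreated cells. Fcrls, an Fc receptor-like gene, averaged 61.1 CPM in positive and 12.2 CPM in negative cells of the Ptgs-/- co-culture, 60.1 CPM in positive and 14.2 CPM in negative cells of the Ptgs+/+ co-culture, and 74.9 CPM in positive and 13.7 CPM in negative untreated cells. Clec4n, Asgr2 and Itgax (CD11c) were likewise higher in the Ccl17-positive cells of all 3 conditions. Plac8 ran the other way, at 116 CPM in positive and 908 CPM in negative cells of the Ptgs-/- co-culture, 42.4 CPM in positive and 607 CPM in negative cells of the Ptgs+/+ co-culture, and 155 CPM in positive and 544 CPM in negative untreated cells. Ms4a6c, Ly6a and Lyz2 were also higher in Ccl17-negative cells. Plac8 and Ms4a6c are on the monocyte list, and Plac8 averaged 4703 CPM in pDCs, so the negative cells held more of these markers. Their part in the division was not tested.

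Cells with Tnfrsf9 were set against those without, 145 and 617 thinned cells with Ptgs-/- cells, 278 and 455 with Ptgs+/+ cells, and 41 and 599 untreated. Nr4a3 and Malt1 were chosen because they were higher in the positive cells of all 3 conditions, so their values are a description. Nr4a3, a cAMP-responsive nuclear receptor, averaged 74.5 CPM in positive and 22.4 CPM in negative cells of the Ptgs-/- co-culture, 48.2 CPM in positive and 28.1 CPM in negative cells of the Ptgs+/+ co-culture, and 117 CPM in positive and 15.7 CPM in negative untreated cells. Malt1, a protease of NF-kB signalling, averaged 606 CPM in positive and 328 CPM in negative cells of the Ptgs-/- co-culture, 505 CPM in positive and 321 CPM in negative cells of the Ptgs+/+ co-culture, and 395 CPM in positive and 153 CPM in negative untreated cells. At equal depth Ramp3 was seen in 30.3% of Tnfrsf9-positive and 11.5% of negative cells with Ptgs-/- cells, and in 27.3% of positive and 17.8% of negative cells with Ptgs+/+ cells. Klrd1 was nearly as frequent in both, at 28.3% of positive and 27.2% of negative cells with Ptgs-/- cells, and 48.6% of positive and 44.4% of negative cells with Ptgs+/+ cells.

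The same genes were read in the other DC classes, and differences between classes were not tested. Tnfrsf9 had a log2 fold between the co-cultures of -1.18 in cDC2s, -1.61 in cDC1s and -0.38 in mDCs. For Hspa1a these folds were 1.19 in cDC2s, 0.34 in cDC1s and 0.41 in mDCs, and for Id2 -0.76 in cDC2s, -0.11 in cDC1s and -0.31 in mDCs. Over untreated cells, Crem had folds with Ptgs-/- cells of 1.58 in cDC2s, 2.02 in cDC1s and 0.90 in mDCs, and Vegfa of 1.65 in cDC2s, 1.47 in cDC1s and 0.97 in mDCs, so both genes were higher in all 3 classes.

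The cDC2s that the authors annotated in 5555 tumours, taken 4 days after injection, differ from cultured ones in source and library, and 1 library stands for each genotype (the NK cell-depleted Ptgs-/- library was not used here). They numbered 523 in Ptgs-/- tumours (median 7525 UMIs) and 379 in Ptgs+/+ tumours (median 6054 UMIs). Klrd1 averaged 171 CPM in Ptgs-/- and 715 CPM in Ptgs+/+ tumours, and Ramp3 27.4 CPM in Ptgs-/- and 139 CPM in Ptgs+/+ tumours. Il1r2 averaged 224 CPM in Ptgs-/- and 1147 CPM in Ptgs+/+ tumours, and Ifitm1 202 CPM in Ptgs-/- and 5064 CPM in Ptgs+/+ tumours. These 4 genes were lower with Ptgs-/- melanoma cells in the tumours and in the cultures, though in the cultures Il1r2 and Ifitm1 lay within 1.5-fold. Egr1, at 579 CPM in Ptgs-/- and 168 CPM in Ptgs+/+ tumours, and Ccl22, at 79.4 CPM in Ptgs-/- and 11.9 CPM in Ptgs+/+ tumours, were higher in Ptgs-/- tumours and lower in the Ptgs-/- co-culture. Hspa1a averaged 309 CPM in Ptgs-/- and 309 CPM in Ptgs+/+ tumours, and Tnfrsf9 22 CPM in Ptgs-/- and 13.9 CPM in Ptgs+/+ tumours. Ccl17 had 948 UMIs in cDC2s of Ptgs-/- tumours and 0 UMIs in those of Ptgs+/+ tumours, while cultured cDC2s held it in every condition.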

How the data were processed

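Expression was measured by droplet single-cell RNA-seq of 3 pooled, hashtagged cultures. Cell Ranger 3.0.2, Partek and the mm10 build stand in the submitters' processing notes, and their settings are not given in the sources used here. The deposited matrix holds log2 values, which the authors had normalized to CPM, the same total in every cell, before 1 was added and the logarithm taken, as the values themselves show. Conditions and cell classes were taken from the authors' deposited annotation, joined by cell name, and no cell was filtered out here.

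CPM was recovered by inverting the logarithm, and UMI counts by dividing by each cell's most frequent value above 0, taken as 1 UMI. Of values above 0, 99.9% came out whole within 0.1 UMI plus 0.01%, and 16 symbols that held parts of a UMI got no UMI counts or intervals. Because each condition was 1 culture, no count test was run on the recovered reads, and differences are sizes. The pseudocount was 5 CPM. Folds were centred on the median of all genes where that median was over 0.1 from 0. Genes had to be seen in at least 10% of cells of either condition, and list members in at least 5%. The 3′ reads give levels that do not scale with gene length, but counting of reads between near-identical genes is not given in the sources used here.

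Genes were named by rule. The rule took the 10 highest and 10 lowest per comparison, leaving out receptor segments, haemoglobin, mitochondrial and ribosomal protein genes, together with the list members of largest fold, a short set of further genes and the identity markers. The members and lists were chosen with earlier results of these data known. The calculation was tested on simulated data in which all cells of a condition shared 1 profile, so the spread between cells was not part of that test. Intervals are exact conditional binomial for UMI ratios and Clopper-Pearson for shares. Alternatives were other pseudocounts, averages of log values, depth weights, detection limits, centring, thinning and leaving out cells with other cells' markers. The CT26 files were not used here. A few genes are not reported here. Python 3.11.15, numpy 2.4.6, pandas 2.3.3, scipy 1.17.1 and matplotlib 3.10.9 were used.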

Additional observations from a re-analysis of the deposited data

Results flagged for a closer look

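Over 3 pairings of a gene and a comparison, the fold in cDC2s and that in another DC class lay past 1.5-fold on opposite sides. With 1 culture per condition none of these differences was tested. Ccl4, in the Ptgs+/+ co-culture over untreated cells, had a log2 fold of 1.06 in cDC2s (29.4 CPM with Ptgs+/+ cells, 13 CPM untreated) and of -0.73 in mDCs (33.2 CPM with Ptgs+/+ cells, 71.9 CPM untreated). Ptgs1, in the same comparison, had a log2 fold of 1.07 in cDC2s (169.6 CPM with Ptgs+/+ cells, 85.5 CPM untreated) and of -0.81 in mDCs (7.80 CPM with Ptgs+/+ cells, 22.2 CPM untreated). Ccl5, in the Ptgs-/- co-culture over untreated cells, had a log2 fold of 0.77 in cDC2s (36.3 CPM with Ptgs-/- cells, 21.8 CPM untreated) and of -1.22 in cDC1s (14.3 CPM with Ptgs-/- cells, 45.2 CPM untreated).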

How the results depend on the processing

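The counts of genes past 1.5-fold depended mainly on the pseudocount and on how cells were averaged. Between the co-cultures, 42 genes were past it, against 101 (28 higher, 73 lower) with a pseudocount of 1, 15 (3 higher, 12 lower) with 20, 148 (11 higher, 137 lower, 24 of them shared with the 42) from mean log2 values per cell, and 76 (19 higher, 57 lower) with no detection limit. For the Ptgs-/- co-culture over untreated cells, 421 genes were past it (235 higher, 186 lower). With a pseudocount of 1 the count was 659 (323 higher, 336 lower), and with 20 it was 141 (94 higher, 47 lower). From mean log2 values it was 802 (299 higher, 503 lower). For the Ptgs+/+ co-culture over untreated cells, 485 were past it (270 higher, 215 lower). With a pseudocount of 1 the count was 788 (374 higher, 414 lower), and with 20 it was 185 (131 higher, 54 lower). From mean log2 values it was 867 (384 higher, 483 lower). The cause of the last of these shifts was not tested. The other 23 of 33 recomputed counts stayed within 1.5 times. These include the totals over untreated cells without centring, in which more genes were lower than higher in both co-cultures, as given above. Of the named genes' recomputed folds 4229 stayed close, 642 moved and 2 reversed, and of the list medians 1121 stayed close and 49 moved. Both reversals were Siglech over untreated cells without cells holding a UMI of Xcr1, Clec9a, Ccr7, Fscn1 or Siglech, at 0.14 with Ptgs-/- and 0.10 with Ptgs+/+ cells, by construction, since the cells with Siglech itself were left out. That alternative was chosen after seeing the data. Of the 20 genes named as highest or lowest between the co-cultures, Hspa1a, Hspa1b, Gm13546, Tnfrsf9, Gem, Klrd1, Egr1, Csta2 and B930036N10Rik stayed past 1.5-fold under the alternatives run, and the other 11 were inside it under at least 1, such as Lyz2 at -0.20 from mean log2 values. No paired analysis was possible because each condition was 1 culture and the labels give no replicate numbers. Depth limits genes of a few CPM, for which a cDC2 holds less than 1 UMI on average.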

Other observations

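Cells with Hspa1a, at equal depth, numbered 153 with Ptgs-/- cells, 62 with Ptgs+/+ cells and 21 untreated, and the genes set against them here were chosen because they were higher in those cells in all 3 conditions. Hsp90aa1, the inducible HSP90, averaged 858 CPM in positive and 248 CPM in negative cells of the Ptgs-/- co-culture, 839 CPM in positive and 281 CPM in negative cells of the Ptgs+/+ co-culture, and 476 CPM in positive and 315 CPM in negative untreated cells. Hcar2 averaged 73.2 CPM in positive and 40.7 CPM in negative cells of the Ptgs-/- co-culture, 45.2 CPM in positive and 25.3 CPM in negative cells of the Ptgs+/+ co-culture, and 57.1 CPM in positive and 38.1 CPM in negative untreated cells, and Plaur 131 CPM in positive and 95.6 CPM in negative cells of the Ptgs-/- co-culture, 113 CPM in positive and 85.8 CPM in negative cells of the Ptgs+/+ co-culture, and 57.1 CPM in positive and 25.2 CPM in negative untreated cells.

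The proliferating cDC2s, kept apart above, made up 7.25% (6.43 to 8.15%) of the Ptgs-/- co-culture, 4.69% (4.04 to 5.40%) of the Ptgs+/+ co-culture and 4.10% (3.45 to 4.82%) of the untreated culture. In them Ccl5 averaged 152 CPM with Ptgs-/- cells, 321 CPM with Ptgs+/+ cells and 52.1 CPM untreated.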
